A study of Mus musculus with 6 samples.

Results

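Mitochondrial fatty acid oxidation and ketone body metabolism was followed through 32 genes in the liver of mice on chow, on a fast-food diet, or on the same diet with the EGFR inhibitor canertinib. The genes were chosen by name, from fatty acid activation to the last step of ketone body synthesis. Of the 32, 30 had a probe set on the Affymetrix Mouse Genome 430 2.0 array that the platform annotation gives 1 gene symbol, and Acsl1 and Ucp2 are not analysed here. Each gene is described by its brightest such probe set over the 6 arrays. All 30 lay above a floor of 221.4 signal units on at least 1 array, among 13989 of 18194 genes in the series that did, and 28 lay above it on all 6. The other 2, Pdk4 and Oxct1, passed that filter only through the arrays on which they were highest.

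The mice were male C57BL6/J, an inbred laboratory strain, aged 6 to 8 weeks at the start, and none of the labels names a genetic change. In the 2-month study the groups were fed chow, the fast-food diet alone, or that diet with canertinib mixed in at an estimated 80 mg/kg per day for the whole period. In the 5-month study the groups were chow, the fast-food diet with injections of the vehicle PBS, and the fast-food diet with intraperitoneal canertinib (80 mg/kg, 5 injections weekly during the last 5 weeks). An injection of the 5-month chow mice is not described, so that diet and injection cannot be told apart in their comparison. The diet held 21% fat (42% of calories) and 34% sucrose by weight and 0.2% cholesterol, with glucose at 18.9 g/L and fructose at 23.1 g/L in the drinking water. Canertinib binds irreversibly to the kinases of the ERBB receptor family, to which EGFR belongs. Route, duration and length of study differed together between the studies.

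Each group is 1 array, and the RNA on it was pooled from 3 to 4 livers. No comparison within a study therefore has a replicate check, and differences of single arrays are given without an error or test. As a background, the members' differences between the 2 chow arrays had an SD of 0.14 on the log2 scale and none exceeded 0.35 in size, and of all measured genes 1.28% had a 2-fold or greater excess at 5 months and 1.32% a deficit of that size. A limma fit over all 6 arrays, with terms for treatment and for study, took the studies as repeats of each other and left 2 residual degrees of freedom. Its adjusted p-values (Benjamini-Hochberg) run over all 13989 genes. In whole liver, fewer cells of a type and less RNA per cell cannot be told apart. Hepatocyte markers were present, with a summed signal of 499268 and 399362 on the drug arrays against 262847 to 357006 on the other 4 arrays (7 of 8 listed markers), and the adipocyte markers Adipoq and Lep were at the floor on all 6 arrays. The share of measured genes above the floor ran from 84.3% to 86.6% over the arrays.

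In mitochondria, a fatty acid is burned in cycles that each shorten its chain by an acetyl-CoA unit. The chain is first activated to an acyl-CoA and carried across the inner membrane as a carnitine ester, and each cycle then runs through a dehydrogenase, a hydratase, another dehydrogenase and a thiolase. Double bonds in unsaturated chains need extra isomerases and a reductase, and the electrons of the acyl-CoA dehydrogenases pass through the electron transfer flavoprotein to the respiratory chain. In fasting liver, surplus acetyl-CoA is turned into ketone bodies, which the liver exports and does not itself burn. PPARalpha, a nuclear receptor activated by fatty acids, is a main transcriptional regulator of these genes in liver.

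Most of the 30 genes were lower with the drug than on the diet alone, by modest amounts, while differences between diet and chow were small and mixed. The comparison of diet with chow and that of drug with diet share the diet array of each study. With the diet alone, 19 members were higher and 10 lower than on chow at 2 months, and 17 were higher and 13 lower at 5 months, with median log2 differences of 0.15 and 0.05. In any amount, 45.5% of measured genes were higher at 2 months and 43% at 5 months. Because the members are bright, the 937 genes at or above a mean signal of 4111, the lower quartile of the members, were set beside them, and of these bright genes 62.6% and 35% were higher with the diet, with medians of 0.10 and -0.15. The 63.3% of members that were higher at 2 months is thus near the share of bright genes. No member was at least 2-fold different with the diet in either direction at either time, a size that 1.98% and 2.72% of measured genes reached upward and 1.55% and 1.83% downward. At 1.5-fold, Bdh1, Cpt1a and Hadh were higher at 2 months (7.51% of measured genes), Bdh1 and Pdk4 were higher at 5 months (8.45%), and Acadsb and Mlycd were lower at 5 months (7.57%). With canertinib on the diet, 26 of 30 members were lower than on the diet alone at each time, against 46.6% of measured genes at 2 months and 46.5% at 5 months. Their median log2 difference was -0.52 at 2 months and -0.45 at 5 months. That of all measured genes was 0 at both, where genes at the floor on both arrays count as 0. Over all probe sets without the floor, the median was 0.07 and -0.02. The 5-month count includes Oxct1 and Pdk4, whose place among the measured genes rests on the arrays where they were high. Of the 28 members above the floor throughout, 26 were lower at 2 months and 24 at 5 months, against 51.8% and 49.5% of the 9874 such genes. The median of the bright genes was -0.07 at 2 months and 0.08 at 5 months with the drug, and 53.4% and 42.6% of them were lower.

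**Figure D1:**
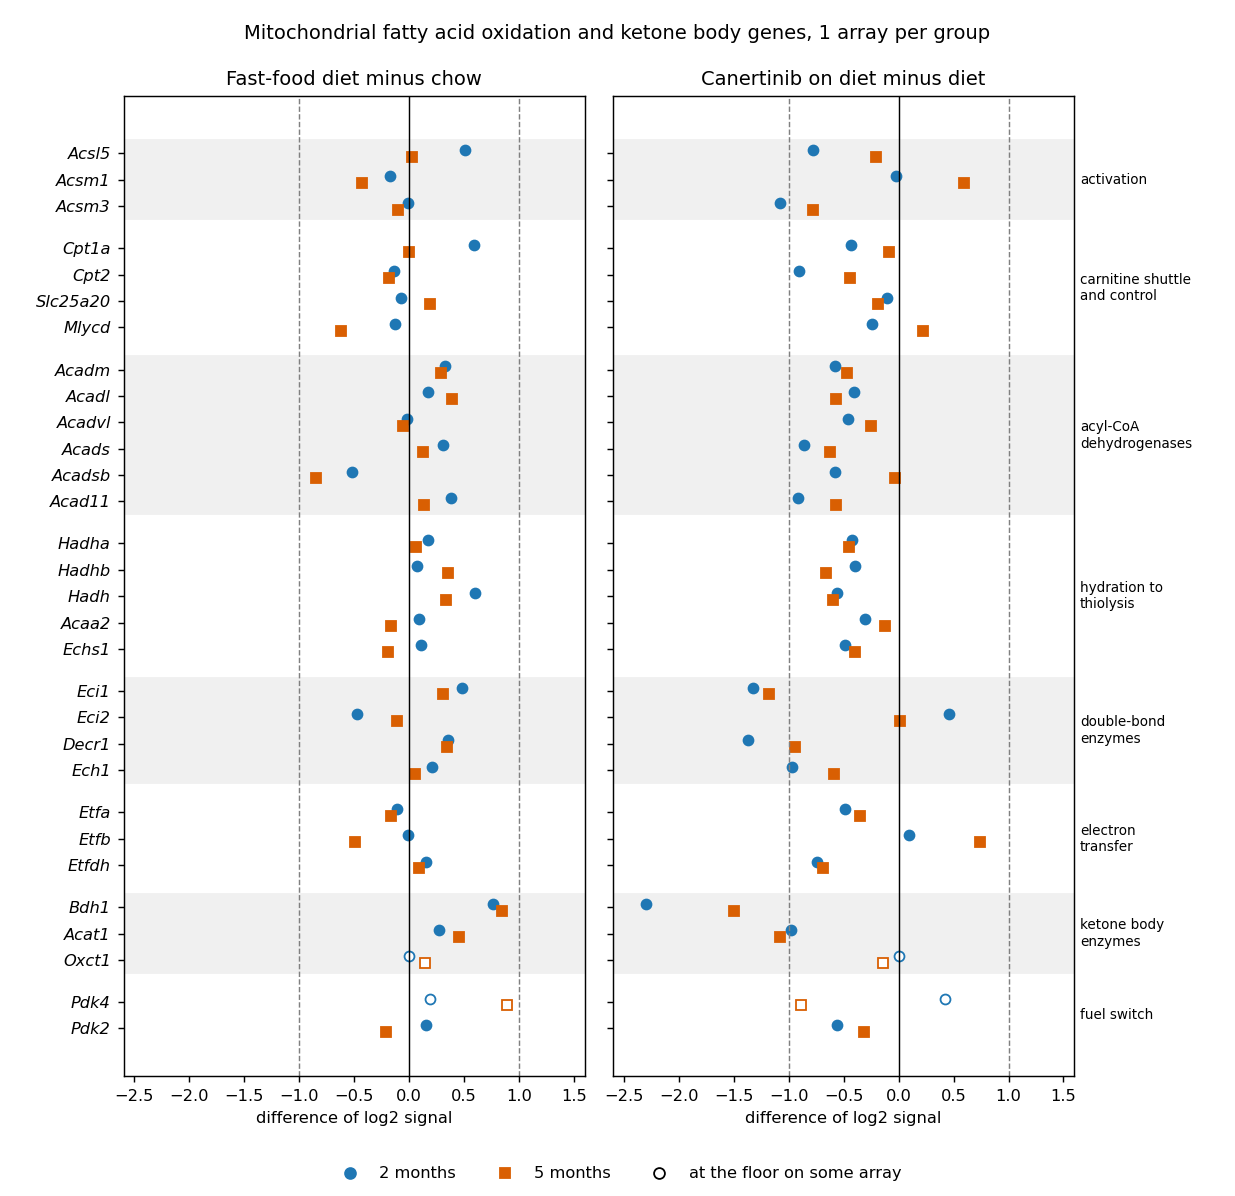
Difference of log2 signal (x axis) for each of the 30 members, grouped by role, for diet against chow (left) and for canertinib on the diet against the diet (right), with circles for 2 months and squares for 5 months. Dashed lines mark 2-fold, and open symbols are genes at the floor on some array. With the drug 26 of 30 members lie left of 0 at each time, and Bdh1 lies farthest left.

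At least 2-fold lower were 4 members at 2 months (Bdh1, Decr1, Eci1 and Acsm3), against 3.26% of measured genes and 8% of bright ones, and 3 at 5 months (Bdh1, Eci1 and Acat1), against 2.73% and 4.06%. Bdh1 and Eci1 were so at both times, against 0.865% of measured genes and 3.42% of bright ones. No member was 2-fold higher with the drug, where 3.55% and 2.19% of measured genes and 8.32% and 8% of bright ones were. The split of all 2-fold differences depends on the scaling: at 2 months 497 genes were higher and 456 lower as deposited, and 384 and 616 with median centring, and at 5 months 307 and 382 became 384 and 317, while 25 to 27 members were lower under each of 4 scalings at each time. At a threshold of 1.5-fold, 11 members were lower at 2 months (10.6% of measured genes, 20.1% of bright ones) and 11 at 5 months (9.25% and 11.2%), Pdk4 among the latter, and 8 were so at both times, against 3.05% of measured genes and 8.54% of bright ones. These 8 were Bdh1, Eci1, Decr1, Acat1, Acsm3, Ech1, Acads and Etfdh. At least 1.5-fold higher were 0 members at 2 months, against 10.9% of measured genes, and 2 at 5 months, Etfb and Acsm1, against 8.22%. The drug array had the lowest signal of its study for 24 members at 2 months (33.1% of measured genes, 41.7% of bright ones) and 23 at 5 months (31.1% and 34.7%), and for 21 in both studies (16.3% and 28.4%). The diet array was the highest of its study for 18 members at 2 months (30.6% of measured genes, 39.8% of bright ones) and 17 at 5 months (29.7% and 21.5%). Without Oxct1 and Pdk4, for which the filter favours a high 5-month diet array, the latter count was 15 of 28, against 30% of genes above the floor throughout. For 19 members both drug arrays lay below all 4 other arrays, against 10.4% of measured genes and 22.3% of bright ones.

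In the limma fit over both studies, 2 members passed an adjusted p of 0.05 with the drug, both of them lower, where 0.307% of measured genes were called lower and 0.407% higher. Eci1 fell by 1.25 ± 0.13 on the log2 scale (SE, adjusted p = 0.029 by limma), and Bdh1 fell by 1.90 ± 0.24 (SE, adjusted p = 0.049 by limma). Next were Decr1 with -1.16 ± 0.16, Acat1 with -1.03 ± 0.15 and Acsm3 with -0.93 ± 0.14, at limma adjusted p = 0.058, 0.068 and 0.075. At an unadjusted limma p under 0.05, 20 members were lower and 0 higher, where 7.53% and 7.24% of measured genes were, or 14.8% in all. Bright genes were called more often: 1.92% of them were called lower and 3.42% higher with the drug, and at the unadjusted threshold 20.8% were lower and 22.1% higher. The calls did not survive the loss of an array. With any 1 of the 6 arrays left out, 1 residual degree of freedom remained, limma called no gene of the series, and the adjusted p-values of Eci1 and Bdh1 lay between 0.39 and 0.54, with estimates of -1.33 to -1.17 and -2.32 to -1.48. Without the study term only Eci1 was called. With the diet no member was called, where 0.0286% of measured genes were called higher and none lower, and 3 members had an unadjusted limma p under 0.05, namely Bdh1 and Eci1, higher, and Acadsb, lower, where 5.43% of measured genes were higher and 4.44% lower, or 9.87% in all.

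Markers of other cell types and a sign of RNA quality were also compared. The summed signal of 6 neutrophil markers was 13926 and 15676 on the drug arrays and 2131 to 2597 on the other 4, with 1 of them, Camp, at the floor throughout. Of 6 stellate cell markers, 4 were lower with the drug than on the diet at 2 months and 6 at 5 months, with 2 at least 2-fold lower at each time, the collagen genes Col3a1 (-2.00 and -2.31 log2) and Col1a1 (-1.54 and -2.27). Their summed signal was 7577 and 5999 on chow, 15156 and 22554 with the diet and 14742 and 10809 with the drug, and on the 2-month drug array Dcn made up 12831 of it, with log2 differences of 0.31 and -0.83. The sum of 6 macrophage markers differed with the diet and little between diet and drug, at 20704 and 27849 with the diet, 21430.1 and 29222 with the drug and 7405 to 7595 on chow. For actin, the log2 excess of the 3′ control probe set over the 5′ one, which grows as RNA degrades, was 1.19 and 1.12 on the drug arrays and 0.85 to 0.98 on the others, while that of Gapdh on the drug arrays lay within the range of the others. The part of these in the lower signals of the members was not tested.

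Bdh1, the ketone body gene that limma called, encodes the mitochondrial D-beta-hydroxybutyrate dehydrogenase that interconverts acetoacetate and beta-hydroxybutyrate. At 2 months its signal was 4100.1 on chow, 6964 on the diet and 1417 on the diet with canertinib. At 5 months the corresponding signals were 4632, 8294 and 2936. Each drug array was below and each diet array above both chow arrays. The diet signal was 1.70-fold and 1.79-fold that on chow, and the drug signal was 4.91-fold and 2.83-fold lower than on the diet. Against chow, the drug signal was 2.89-fold and 1.58-fold lower. The other probe set of Bdh1 had the same order of the 3 arrays in each study, with drug log2 differences of -3.08, where the drug array was at the floor, and -1.42.

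Eci1, the other called gene, encodes the mitochondrial enoyl-CoA delta isomerase, which shifts double bonds so that unsaturated chains can enter the cycle. Its signals were 6327 on chow, 8815 on the diet and 3526 with the drug at 2 months, and 6262, 7738 and 3422 at 5 months. The drug arrays were nearly level with each other and below all others, and the diet arrays were above both chow arrays. Relative to the diet, the drug signal was 2.50-fold and 2.26-fold lower.

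The proximal promoter windows of members that moved together are shown from RefSeq (GRCm38.p6), which lists windows from 250 bases before to 50 bases after a start for 29 of the 32 genes. Shown are Bdh1 and Eci1, the genes called with the drug, Ech1, the member whose signals over the 6 arrays followed the members' mean most closely, and Acadm, a textbook PPARalpha target. Capitals mark GGGCGG, the GC box, and AGGTCA, the hexamer bound by nuclear receptors, each on either strand. Windows run 5′ to 3′ on the strand of the gene. They are chr16:31422047-31422346 and chr16:31428503-31428802 (both plus strand) for 2 starts of Bdh1, chr17:24426433-24426732 (plus) for Eci1, chr7:28825088-28825387 (plus) for Ech1 and chr3:153944594-153944893 (minus) for Acadm.
Bdh1, upstream start: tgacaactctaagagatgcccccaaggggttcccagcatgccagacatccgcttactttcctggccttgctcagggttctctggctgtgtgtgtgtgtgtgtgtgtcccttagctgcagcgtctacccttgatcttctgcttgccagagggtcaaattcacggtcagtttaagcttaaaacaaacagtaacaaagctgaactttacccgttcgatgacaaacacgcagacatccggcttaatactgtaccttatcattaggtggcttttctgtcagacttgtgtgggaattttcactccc
Bdh1, downstream start: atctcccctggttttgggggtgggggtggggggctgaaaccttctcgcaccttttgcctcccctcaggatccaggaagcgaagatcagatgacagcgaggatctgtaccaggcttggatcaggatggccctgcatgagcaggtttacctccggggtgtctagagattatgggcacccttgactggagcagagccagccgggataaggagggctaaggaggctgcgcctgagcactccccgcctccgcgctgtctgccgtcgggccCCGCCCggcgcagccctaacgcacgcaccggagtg
Eci1: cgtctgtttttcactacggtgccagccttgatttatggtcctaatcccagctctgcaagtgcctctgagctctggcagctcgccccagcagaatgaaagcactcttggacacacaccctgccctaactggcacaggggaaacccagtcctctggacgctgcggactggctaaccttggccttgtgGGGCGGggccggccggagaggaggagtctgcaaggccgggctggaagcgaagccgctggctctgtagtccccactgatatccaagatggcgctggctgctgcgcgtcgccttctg
Ech1: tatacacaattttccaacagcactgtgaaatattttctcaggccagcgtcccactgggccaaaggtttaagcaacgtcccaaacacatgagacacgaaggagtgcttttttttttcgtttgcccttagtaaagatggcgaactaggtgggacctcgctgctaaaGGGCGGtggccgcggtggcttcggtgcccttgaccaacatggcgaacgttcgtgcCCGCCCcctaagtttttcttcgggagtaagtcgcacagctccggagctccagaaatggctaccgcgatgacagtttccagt
Acadm: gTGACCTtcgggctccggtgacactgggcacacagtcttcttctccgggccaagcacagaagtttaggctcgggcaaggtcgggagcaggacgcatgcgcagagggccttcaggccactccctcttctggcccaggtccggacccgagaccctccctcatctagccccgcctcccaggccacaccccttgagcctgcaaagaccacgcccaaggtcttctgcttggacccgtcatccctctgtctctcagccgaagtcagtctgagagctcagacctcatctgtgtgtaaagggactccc

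The 32 windows of the members were rich in G and C, with a median of 60.5% against 52.7% over all 32851 windows. GGGCGG occurred in 19 of them (59.4%, against 35.7% of all windows) and CCAAT in 14 (43.8% against 37.4%), each counted on both strands. TATAAA occurred in none, where 13.6% of all windows hold it. AGGTCA occurred in 5, those of Acadm, Acadvl, Acsm1, Cpt1a and Echs1 (15.6% against 16.3%). The tandem form AGGTCANAGGTCA, known as DR1, which contains the hexamer and is the classical PPAR binding arrangement, occurred in none, where 0.0396% of all windows hold it. These are matches of letters within 300 bases and say nothing of binding elsewhere.

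**Figure D2:**
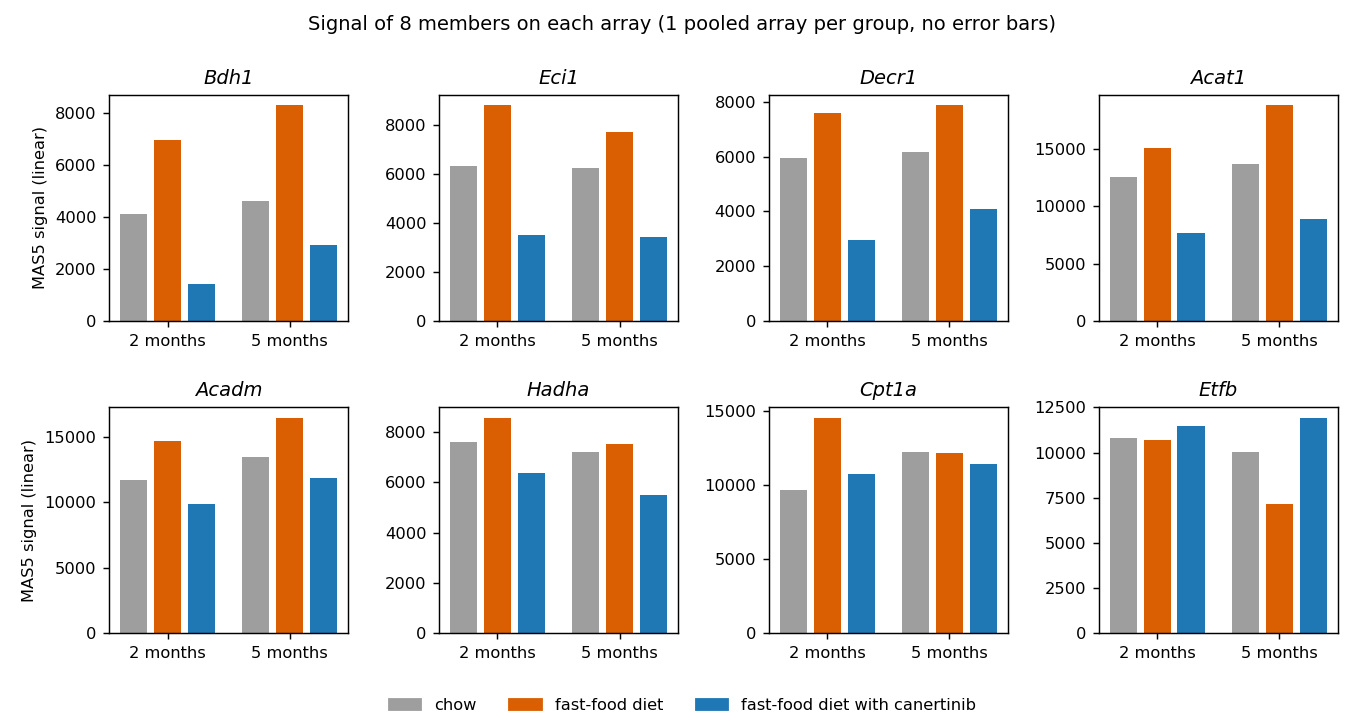
Signal on a linear scale (y axis, from 0) of 8 members on each of the 6 arrays, with grey bars for chow, orange for the fast-food diet and blue for the diet with canertinib, at 2 and 5 months. There is 1 pooled array per bar and no error. For Bdh1, Eci1, Decr1, Acat1, Acadm and Hadha the drug bar is the lowest of its study at both times, whereas for Etfb it is the highest.

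Fatty acid activation was represented by Acsl5, a long-chain acyl-CoA synthetase, and by the medium-chain synthetases Acsm1 and Acsm3. Acsl5 was 1.42-fold higher with the diet at 2 months and 1.01-fold at 5 months, and 1.72-fold and 1.15-fold lower with the drug. Acsm3 had signals of 2384, 2365 and 1120.4 on chow, diet and drug at 2 months and of 2126, 1975 and 1149.6 at 5 months. Chow and diet were thus close and the drug arrays were 2.11-fold and 1.72-fold below the diet. Acsm1 did not follow, with drug log2 differences of -0.02 and 0.59.

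The carnitine shuttle brings the activated chain into the mitochondrion, and Cpt1a, whose product attaches the carnitine, is its rate-controlling step. Cpt1a had signals of 9659, 14557 and 10753 on chow, diet and drug at 2 months and of 12231, 12172 and 11439 at 5 months. The diet array stood out at 2 months alone, 1.51-fold above chow, and the drug signal was 1.35-fold and 1.06-fold below the diet. Its other probe sets, dim and of the x type that can bind other transcripts, had diet log2 differences of the opposite sign at 2 months, -0.53 and -0.50. With the drug these probe sets were also of the opposite sign at 2 months, at 0.08 and 0.30. At 5 months they had drug differences of -0.74 and -0.67. Cpt2, which removes the carnitine inside, was 1.87-fold and 1.36-fold lower with the drug and -0.14 and -0.19 log2 apart from chow with the diet. The carrier gene Slc25a20 had log2 differences of -0.10 and -0.19 with the drug, and its other, nearly as bright probe set had -0.71 and -0.49. Mlycd, whose product degrades the CPT1 inhibitor malonyl-CoA, had diet log2 differences of -0.13 and -0.62 and drug differences of -0.24 and 0.22.

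All 6 genes of acyl-CoA dehydrogenases, the enzymes of the opening oxidation step, were lower with the drug at both times, with medians of -0.58 and -0.52. Acadm, the medium-chain enzyme, had signals of 11698, 14677 and 9834 on chow, diet and drug at 2 months and of 13448, 16428 and 11850.2 at 5 months. In each study the diet array was highest and the drug array lowest, and the drug signal was 1.49-fold and 1.39-fold below the diet, but the 5-month drug signal exceeded the 2-month chow signal. Acads, the short-chain enzyme, was 1.81-fold and 1.54-fold lower, and Acad11, which acts on long chains, was 1.88-fold and 1.48-fold lower. The long-chain enzyme genes Acadl and Acadvl were lower by 0.41 and 0.57 and by 0.46 and 0.25 on the log2 scale. Acadsb, which takes part in isoleucine breakdown, was the member with the lowest diet values, at log2 differences of -0.52 and -0.85, and was 2.14-fold and 1.84-fold below chow with the drug. Its probe set is of the x type, so other transcripts may add to its signal.

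The enzymes of the later steps had medians of -0.43 and -0.45 with the drug, and all 5 genes were lower at both times. Hadha, the alpha subunit of the trifunctional protein that carries out these steps on long chains, had signals of 7582, 8559 and 6363 at 2 months and of 7206, 7504 and 5495 at 5 months for chow, diet and drug. Both drug arrays lay below the other 4 arrays, at 1.35-fold and 1.37-fold below the diet. The beta subunit gene Hadhb was 1.32-fold and 1.58-fold lower. Another Hadhb probe set, of the x type, had drug log2 differences of -0.73 and -0.24. With the diet it had -0.39 and -0.23, where the brightest had 0.07 and 0.35. A dim Hadhb probe set had drug differences of 0.13 and 0.30, with the diet arrays at the floor. Hadh, the short-chain hydroxyacyl-CoA dehydrogenase, was 1.51-fold and 1.26-fold higher with the diet and 1.47-fold and 1.51-fold lower with the drug. These values come from a probe set of the x type. A bright Hadh probe set not of that type had log2 differences of 0.50 and 0.09 with the diet. With the drug it had -0.65 and -0.23, the latter short of 1.5-fold. A dim one of the x type had drug differences of -2.06, where the drug array was at the floor, and -1.27. The hydratase gene Echs1 had drug differences of -0.49 and -0.40. The thiolase gene Acaa2 was 1.24-fold and 1.09-fold lower by its brightest probe set, while another of its probe sets had -0.77 and then 1.15, with a signal of 14149 on the 5-month drug array.

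Besides Eci1, the enzymes for unsaturated chains include Decr1, whose limma estimate was the next in size after those of Bdh1 and Eci1. Decr1, the dienoyl-CoA reductase, had signals of 5935, 7601 and 2938 on chow, diet and drug at 2 months and of 6184, 7867 and 4092 at 5 months. The drug arrays were the lowest and the diet arrays the highest, with the drug 2.59-fold and 1.92-fold below the diet, and its other probe set had log2 differences of -1.28 and -0.76. Ech1, a dienoyl-CoA isomerase, was 1.96-fold and 1.51-fold lower. Eci2, an isomerase found in peroxisomes as well as mitochondria, went the other way at 2 months, at 1.37-fold higher with the drug and 1.39-fold lower with the diet, and was level at 5 months with a drug difference of 0.01.

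The electron transfer genes were split. Etfa, the alpha subunit of the flavoprotein, was 1.40-fold and 1.28-fold lower with the drug, and Etfdh, which passes its electrons to ubiquinone, was 1.68-fold and 1.61-fold lower. Etfb, the beta subunit, had signals of 10805, 10692 and 11449 at 2 months and of 10043, 7147 and 11925 at 5 months for chow, diet and drug. The low diet array at 5 months stood apart from the other 5, and the drug signal there was 1.67-fold that on the diet.

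Of the other ketone body genes, Acat1 encodes the mitochondrial acetoacetyl-CoA thiolase. Its signals were 12523, 15073 and 7625 on chow, diet and drug at 2 months and 13691, 18779 and 8878 at 5 months, so that both drug arrays were below and both diet arrays above the chow arrays. The drug difference was 1.98-fold and 2.12-fold lower, and all 3 probe sets gave log2 values between -1.27 and -0.98. Oxct1 encodes the transferase with which other tissues use ketone bodies and which adult hepatocytes lack. It was at the floor on 5 arrays and at 243.9 on the 5-month diet array. Of the pyruvate dehydrogenase kinases, which spare glucose when fat is burned, Pdk2 was 1.47-fold and 1.24-fold lower with the drug. Pdk4 was dim, with signals of 180.2, 252.8 and 339.2 on chow, diet and drug at 2 months and of 163.7, 409.8 and 131.9 at 5 months. The chow arrays and the 5-month drug array were at the floor, so that the diet difference at 5 months was at least 1.85-fold higher and the drug difference at least 1.85-fold lower.

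The 2 studies share no array. Over the 28 members above the floor on all arrays, 26 had the same sign of the drug difference at both times, against 61.5% of the 9874 genes that lay above the floor throughout, and 23 had the same sign of the diet difference, against 57.9%. The values at 2 and 5 months correlated across these genes, which share the arrays, with a Pearson r of 0.83 and a Spearman rho of 0.77 for the drug and of 0.72 and 0.68 for the diet. Over the 9874 genes the r was 0.48 and 0.35. Of the 24 members that were lower with the drug at both times, against 27% of measured genes, 18 had the larger difference at 2 months, against 56.5% of the 3103 genes above the floor throughout that were lower at both times. The difference between the studies was not tested, and with cyclic loess scaling the members' median was -0.50 at 2 months and -0.53 at 5 months.

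**Figure D3:**
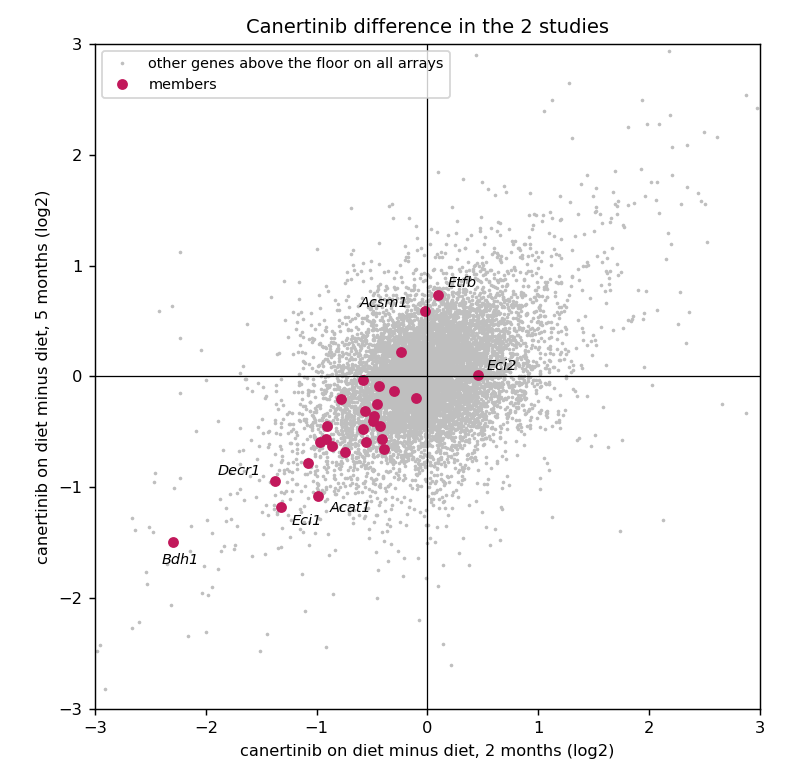
Drug difference at 2 months (x axis) against that at 5 months (y axis), both as log2 signal on the diet with canertinib minus the diet, for the 28 members above the floor on all arrays (large points) and the other such genes (small points, 26 of them outside the plotted range). The members lie mostly at the lower left, with Bdh1 farthest out, and Etfb, Eci2 and Acsm1 lie apart from the rest.

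Set against chow, most members were lower on the diet with canertinib. At 2 months 25 members were below and 4 above chow, and at 5 months 25 below and 3 above, where 48.4% of measured genes were below at each time. The medians were -0.38 and -0.40 log2. At least 2-fold below chow were 5 members at 2 months (Bdh1, Acsm3, Acadsb, Cpt2 and Decr1), against 2.74% of measured genes, and 0 at 5 months, against 2.72%. None was 2-fold above chow, where 3.8% and 2.82% of measured genes were. These comparisons share the drug arrays with those against the diet.

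Other genes of the pathway were mostly lower with the drug too. Beside the counts of these lists, 46.6% and 46.5% of measured genes and 53.4% and 42.6% of bright ones were lower at the 2 times. Limma called 0.307% of measured genes and 1.92% of bright ones lower, and 7.53% and 20.8% at the unadjusted threshold. Of 30 further genes of mitochondrial oxidation and its supply, 25 were measured, and 22 of these were lower at each time, with medians of -0.53 and -0.50. Limma called 0 of them and gave 12 an unadjusted p under 0.05 as lower and 1 as higher. The monocarboxylate transporter gene Slc16a7 had log2 differences of 1.04 and 1.35 with the diet and of -0.83 and -1.57 with the drug. Acacb, whose product makes the malonyl-CoA that restrains CPT1, had 2.18 and 0.20 with the diet and -0.92 and -0.69 with the drug, and the thioesterase gene Acot9 had 0.54 and 1.59 and then -0.68 and -0.50. Among 10 PPARalpha target genes, 8 were measured, 7 of them were lower with the drug at each time, and the medians were -1.39 and -0.97. The drug difference was near 0 for Cyp4a14, at -0.03 and 0.005, and of mixed sign for Angptl4, at 0.20 and -0.32. Vnn1, a pantetheinase gene, had -3.39 and -1.75, the lipid droplet coat gene Plin2 had -2.67 and -1.28, and Ehhadh, the peroxisomal bifunctional enzyme called lower by limma (adjusted p = 0.019), had -1.98 and -1.97. The peroxisomal oxidation list, which also holds Ehhadh, had 12 measured genes, of which 11 and 8 were lower, with medians of -0.92 and -0.45, and limma called Decr2, Ehhadh and Hsd17b4. It included Acaa1b, a thiolase gene, at -4.81 and -1.91 and Hsd17b4 at -1.23 and -1.04. Higher with the drug at 5 months were Abcd2, at -1.01 and then 1.31, and Acox3, at 0.20 and 0.63. So were Acox2, at -0.19 and 0.22, and Scp2, at -0.26 and 0.03.

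The difference was not limited to oxidation enzymes. Genes of the respiratory chain, the citrate cycle and other measures of mitochondrial content were lower too, 17 of 18 measured at 2 months and 18 of 18 at 5 months, with medians of -0.36 and -0.41. Limma called 0 of them and gave 9 an unadjusted p under 0.05 as lower. The shares of measured and bright genes are those given for the lists above. Some of these differences were near 0, as for Vdac1 at -0.07 and -0.05. Uqcrc1, a core subunit of complex III, had -1.08 and -1.10, citrate synthase, Cs, had -1.01 and -0.72, and the isocitrate dehydrogenase gene Idh2 had -0.14 and -1.01. Of the regulators, Ppargc1b, a coactivator of mitochondrial genes, stood on the other side, with -2.65 and -3.13 with the diet and 2.50 and 2.21 with the drug. It was the regulator that limma called (adjusted p = 0.032). Its signals were 1467.8, 233.1 and 1317.3 on chow, diet and drug at 2 months and 1988.8, 226.4 and 1046.2 at 5 months. The diet signals lay just above the floor, and these differences and the call rest on them. Against chow, the drug arrays were not higher, with log2 differences of -0.16 and -0.93. The coactivator gene Ppargc1a had drug differences of 1.25 and 0.00, and Lpin1, a phosphatidate phosphatase that also acts as a coactivator, had 1.95 and 0.08. Ppara itself, chosen for mention after its values were seen, had 0.09 and 0.05 with the diet and -0.60 and -0.48 with the drug.

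**Figure D4:**
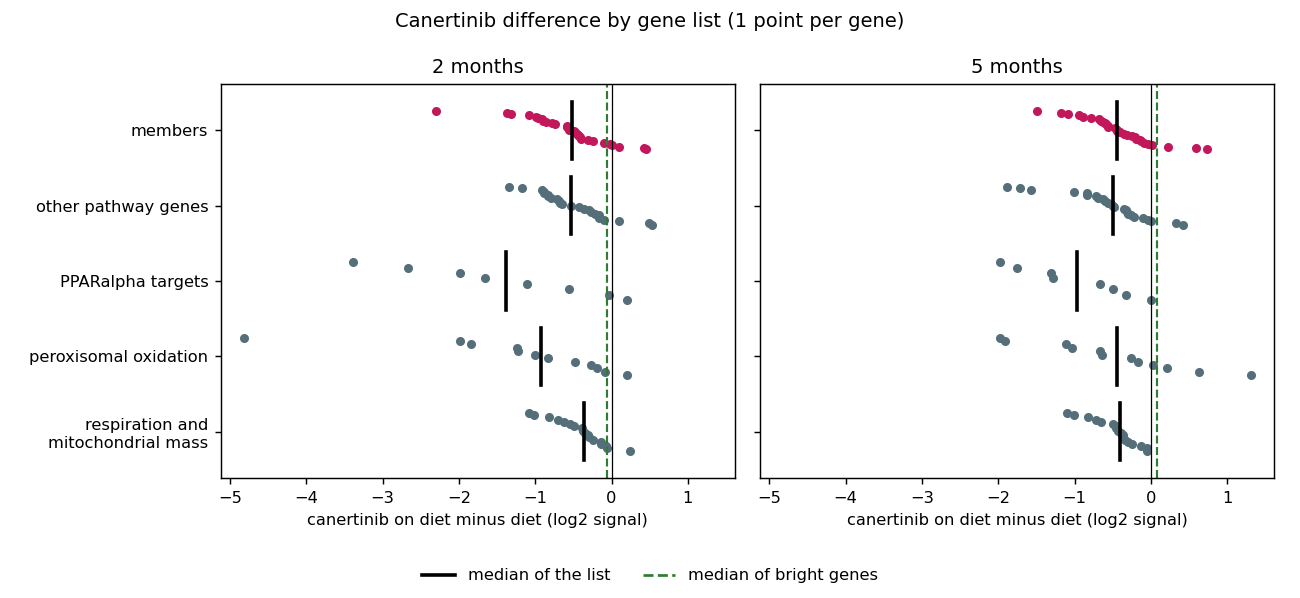
Drug difference of each measured gene (x axis, log2 signal on the diet with canertinib minus the diet) for the members and 4 other lists at 2 months (left) and 5 months (right). Black bars are list medians and the dashed line is the median of the 937 bright genes. All 5 medians lie below that line at both times, from -1.39 for PPARalpha targets to -0.36 for respiration at 2 months.

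The genes whose 6 signals most resembled the mean of the members were sought among 9846 other genes that lay above the floor throughout. The 5 nearest were Ndufa4, which encodes a protein of the respiratory chain, Mipep, a peptidase of mitochondrial protein import, Coq5, an enzyme of ubiquinone synthesis, Ap5m1 and Lamtor2, at Pearson r from 0.992 to 0.997 over 6 arrays. Among the members, Ech1 was nearest to the mean, with an r of 0.996, and Etfb (-0.52), Eci2 (-0.47) and Acsm1 (-0.29) ran against it. Each member is itself part of that mean, which raises its r. Such values describe 6 points and were picked from many genes.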

How the data were processed

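Liver RNA of 6 groups was measured on 1 array each. Per the submitters' processing notes, the deposited intensity values are linear MAS5 signals. The version of MAS5 was not given in the sources read. Each deposited array has a mean of 500 once 2% of its probe sets are trimmed at either end. Of 45101 probe sets, 34958 had 1 symbol in the platform annotation, 932 several and 9211 none, and symbols were updated through gene IDs. Signals below 221.4 (the 50th percentile over the arrays) were set to that floor before taking log2. Array signals have no read depth, and the number of arrays limits precision.

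Comparisons of single arrays carry no test. The fit over both studies used lmFit and eBayes with a variance trend in limma 3.58.1 (R 4.3.3). It was also run on simulated data with the same drug effect in both studies, which cannot show how it does where the effects differ. Nothing in the labels says that the pools are replicates, so its p-values rest only on spread between the studies. That spread is partly the gene's own, with 2 residual degrees of freedom. The rest is borrowed from genes of like signal, with a weight of 3.49 prior degrees of freedom. Alternatives were quantile, cyclic loess and median scaling, a floor at the 40th percentile, at the 60th, or absent, the mean over probe sets, probe sets ending _s_at, _x_at or _a_at left out, genes above the floor on all arrays, a 1.5-fold threshold, fits without study term or variance trend, and each array left out. The bright-gene background was added after seeing the data. The members and lists were chosen with earlier results of these data known. Named were all members, with 6 signals for those 2-fold different at both times or called and for Cpt1a, Acadm, Hadha, Pdk4 and Bdh1, and the 3 genes of each other list with the largest mean difference. Signals of Decr1, Acat1, Acsm3, Etfb and Ppargc1b are given after their values were seen. Cyp4a14, Angptl4, Abcd2, Acox2, Acox3 and Scp2 were also named after their values were seen. Python 3.11.15 with pandas 2.3.3, NumPy 2.4.6 and matplotlib 3.10.9 was used.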

Additional observations from a re-analysis of the deposited data

Results flagged for a closer look

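Some probe sets of members had differences of opposite sign in the studies that lay at least 1 log2 unit apart, and none of these gaps was tested, since each rests on 4 single arrays. For Pdk4 the drug difference was 0.42 at 2 months and -0.89 at 5 months, a gap of -1.31, at signals near the floor. For a dimmer Acaa2 probe set the drug difference was -0.77 and then 1.15, a gap of 1.92, while the 2 other probe sets of Acaa2 were lower at both times. For the dim Cpt1a probe sets of the x type the diet differences were -0.53 and 0.72 and -0.50 and 1.43, gaps of 1.25 and 1.93, and the brightest Cpt1a probe set had 0.59 and -0.01.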

How the results depend on the processing

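The median drug difference of the members kept its direction under all 9 scaling, floor and probe set alternatives, between -0.63 and -0.50 at 2 months and between -0.53 and -0.35 at 5 months, and the diet median stayed between 0.08 and 0.25 and between 0.03 and 0.15. Of 1048 member differences recomputed, 982 moved by less than the members' SD between the chow arrays. Reversal was counted only for differences at least 2-fold in the main setting, and 0 of these reversed. Sign changes of smaller differences are outside that count. An example is Acaa2 with the drug at 5 months, without _s_at, _x_at and _a_at probe sets. The count at least 2-fold lower with the drug at 2 months, 4, became 8 with median centring, 7 with the mean over probe sets and 11 at 1.5-fold, and at 5 months 3 became 11 at 1.5-fold. The count at least 2-fold higher with the drug at 5 months, 0, became 1 without _s_at, _x_at and _a_at probe sets (Acaa2) and 2 at 1.5-fold. With the diet, 0 members at least 2-fold higher became 1 with no floor and 3 at 1.5-fold at 2 months, and 1 with the floor at the 40th percentile, 2 with no floor and 2 at 1.5-fold at 5 months, where 2 were at least 1.5-fold lower. Of the 2 members that limma called with the drug, 1 remained without the study term as replicate block (Eci1), 1 with median centring and 1 with the floor at the 40th percentile, and 0 without the variance trend or with the mean over probe sets. There were 4 with quantile scaling, 5 with no floor and 9 among genes above the floor on all arrays. With each array left out the count ranged from 0 to 0. The diet count was 0 under these alternatives. Causes were not tested.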
